A study of Mus musculus with 4 samples.

Results

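The guanylate-binding proteins (GBPs) were followed in activated mouse CD8+ T cells as 9 genes taken by symbol from the 32285 genes of the feature tables: Gbp2, Gbp3, Gbp4, Gbp5, Gbp6, Gbp7, Gbp8, Gbp9 and Gbp10. The T cells came from the spleens of 2 mice of genotype gBT-I.CD45.1 tg, whose transgenic T cell receptor binds a glycoprotein B peptide of herpes simplex virus. All cultures were started with peptide-pulsed B6 splenocytes and 6 µg LPS and were fed recombinant human IL-2 at 12.5 U/ml. From day 3 to day 5, 0.5 mM sodium butyrate was added to 1 culture per mouse and PBS to another, the control. Butyrate is a bacterial fermentation product that inhibits histone deacetylases. On day 6, live CD8+Vα2+ cells were purified by flow cytometry and run on 10x 3' chemistry (version 3.1), which gave 2 butyrate and 2 control libraries, all of the same labelled batch. Replicate 1 and replicate 2 stand for the 2 mice, so there was 1 culture per mouse and treatment.

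GBPs are large GTPases of the dynamin superfamily that interferons induce, with interferon gamma as the best known inducer. In infected mouse cells they gather on the vacuoles of parasites and bacteria and on bacteria in the cytosol, where they break membranes and feed inflammasomes. The interferon signal reaches such genes through transcription factors that bind the GAS element and the interferon-stimulated response element (ISRE) in promoters. Activated CD8+ T cells both secrete interferon gamma and respond to it.

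The 9 genes lie in 2 clusters of the mouse genome (GRCm38, GENCODE M21). On chromosome 3, on the plus strand, follow Gbp5 (142493978 to 142522344), Gbp7 (142530342 to 142550149), Gbp3 (142560026 to 142573209) and Gbp2 (142620602 to 142638008). On chromosome 5, on the minus strand, lie Gbp8 (105014150 to 105139540), Gbp9 (105077630 to 105139539), Gbp4 (105115767 to 105139586), Gbp10 (105215699 to 105239533) and Gbp6 (105270702 to 105293698). Gbp4, Gbp8 and Gbp9 start within the same stretch and overlap, so reads from a shared exon or intron cannot be placed with 1 of the 3 genes with certainty. The shared part of their exonic bases is small, at 0.814% for Gbp4, 1.77% for Gbp8 and 1.16% for Gbp9. Of all 50-base words in the last 500 bases of its transcripts, Gbp10 shares 100% with another gene, Gbp6 shares 77.8% and Gbp4 shares 19.4%, against at most 7.32% for each of the other 6 members. UMIs of Gbp10 and Gbp6 are uncertain for this reason. Gbp2b, on chromosome 3 between Gbp3 and Gbp2, had 0 UMIs in the kept cells of all 4 libraries (a count of 0 allows up to 3 UMIs in each), and Gbp11 was not analysed here.

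RefSeq promoters (GRCm38.p6, 250 bases before to 50 after the start) were at hand for the 4 members on chromosome 3. They are shown because these neighbours moved in different directions while each holds a match to the ISRE core. The capitals mark the match to the ISRE core, GAAA followed after any 2 bases by GAAA again. It was searched on both strands and lies on the opposite strand in each of these windows. In Gbp3 the capitals cover 2 overlapping matches.
Gbp5, chr3:142496684-142496983, plus strand: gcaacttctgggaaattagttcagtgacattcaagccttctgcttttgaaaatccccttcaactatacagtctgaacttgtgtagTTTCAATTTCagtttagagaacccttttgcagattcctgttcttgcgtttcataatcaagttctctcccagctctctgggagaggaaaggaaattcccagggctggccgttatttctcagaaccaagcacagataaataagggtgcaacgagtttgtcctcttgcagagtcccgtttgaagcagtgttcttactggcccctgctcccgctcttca
Gbp7, chr3:142530086-142530385, plus strand: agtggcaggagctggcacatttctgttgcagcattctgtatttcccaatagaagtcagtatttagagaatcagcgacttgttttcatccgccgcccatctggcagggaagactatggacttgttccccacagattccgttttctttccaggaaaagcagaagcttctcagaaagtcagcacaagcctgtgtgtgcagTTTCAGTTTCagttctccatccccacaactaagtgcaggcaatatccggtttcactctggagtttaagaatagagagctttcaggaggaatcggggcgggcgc
Gbp3, chr3:142559794-142560093, plus strand: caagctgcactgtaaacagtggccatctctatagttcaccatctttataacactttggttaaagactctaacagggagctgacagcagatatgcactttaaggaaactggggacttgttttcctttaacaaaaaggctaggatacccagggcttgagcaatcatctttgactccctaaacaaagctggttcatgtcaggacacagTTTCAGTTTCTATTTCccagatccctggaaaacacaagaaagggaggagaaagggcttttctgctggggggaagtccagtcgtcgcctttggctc
Gbp2, chr3:142620413-142620712, plus strand: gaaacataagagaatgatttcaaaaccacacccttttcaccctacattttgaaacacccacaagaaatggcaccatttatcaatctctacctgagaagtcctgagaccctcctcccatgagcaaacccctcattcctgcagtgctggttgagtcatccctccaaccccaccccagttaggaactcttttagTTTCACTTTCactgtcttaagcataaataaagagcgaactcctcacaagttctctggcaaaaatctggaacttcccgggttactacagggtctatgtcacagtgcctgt
The core was found in 3.44% of 32851 promoter windows of the same length. The match begins 165 bases before the start in Gbp5, 53 in Gbp7, 45 and 39 in Gbp3 and 59 in Gbp2. The spacer letters differ, since the match reads TTTCAATTTC in Gbp5, TTTCAGTTTC in Gbp7, TTTCAGTTTC and TTTCTATTTC in Gbp3 and TTTCACTTTC in Gbp2. The GAS letters TTCNNNGAA, found in 8.30% of all windows, matched at 2 places in Gbp5 and at 2 in Gbp7 and at none in these windows of Gbp3 and Gbp2. A second RefSeq window of Gbp3 held neither motif, and that of Gbp2b, which had no UMI, held 1 ISRE core that begins 137 bases before the start. These matches describe the letters only, and binding was not tested.

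The libraries held 64388093 to 76522004 UMIs. After the cell call, 2560 and 2664 butyrate cells and 2059 and 2632 control cells were kept, with median depths of 24816 and 23627.5 UMIs in butyrate and 21793 and 20494 UMIs in control. Any pair of libraries shared 1 to 6 cell barcodes. UMIs were summed per library, scaled to CPM with edgeR's TMM factors and tested with its quasi-likelihood F test over 13487 genes, with a Benjamini-Hochberg adjusted p under 0.05 as the threshold. Of all genes tested, 71.8% passed, 36.0% higher and 35.7% lower in butyrate cultures, and the groups did not overlap for 85.9%. The CD8 T cell markers were detected in each library, with a summed level of 2543 and 2828 CPM in butyrate and 3097 and 3176 CPM in control. These marker sums, and those below, are scaled to library totals alone. With TMM scaling the CD8 sums overlapped, at 2729 and 3029 CPM in butyrate and 2907 and 2947 CPM in control. Of the 7 CD8 T cell markers, 2 passed as higher and 2 as lower, where 36.0 and 35.7% of all genes did.

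Butyrate cultures held more Gbp mRNA in sum, and the makeup of the family differed. Gbp4 rose the most of the 9 (134 ± 8.32 CPM in butyrate and 52.0 ± 3.86 CPM in control, SD, n = 2 each), Gbp3, Gbp5, Gbp6, Gbp7 and Gbp8 rose by less, and Gbp2 fell. In all, 6 of the 9 members passed the test as higher, against 36.0% of all genes, and 1 passed as lower, against 35.7%. Gbp9 and Gbp10 did not pass. The share of members that passed in either direction, 77.8%, lies near the 71.8% of all genes. The median log2 fold change of the 9 members was 0.47, against -0.0079 for all genes tested. With library totals as the only scaling, 5 members passed as higher, where 25.2% of all genes did, and 2 as lower, where 49.8% did. In either direction 74.9% of all genes then passed, and the median of all genes moved to -0.21.

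**Figure D1:**
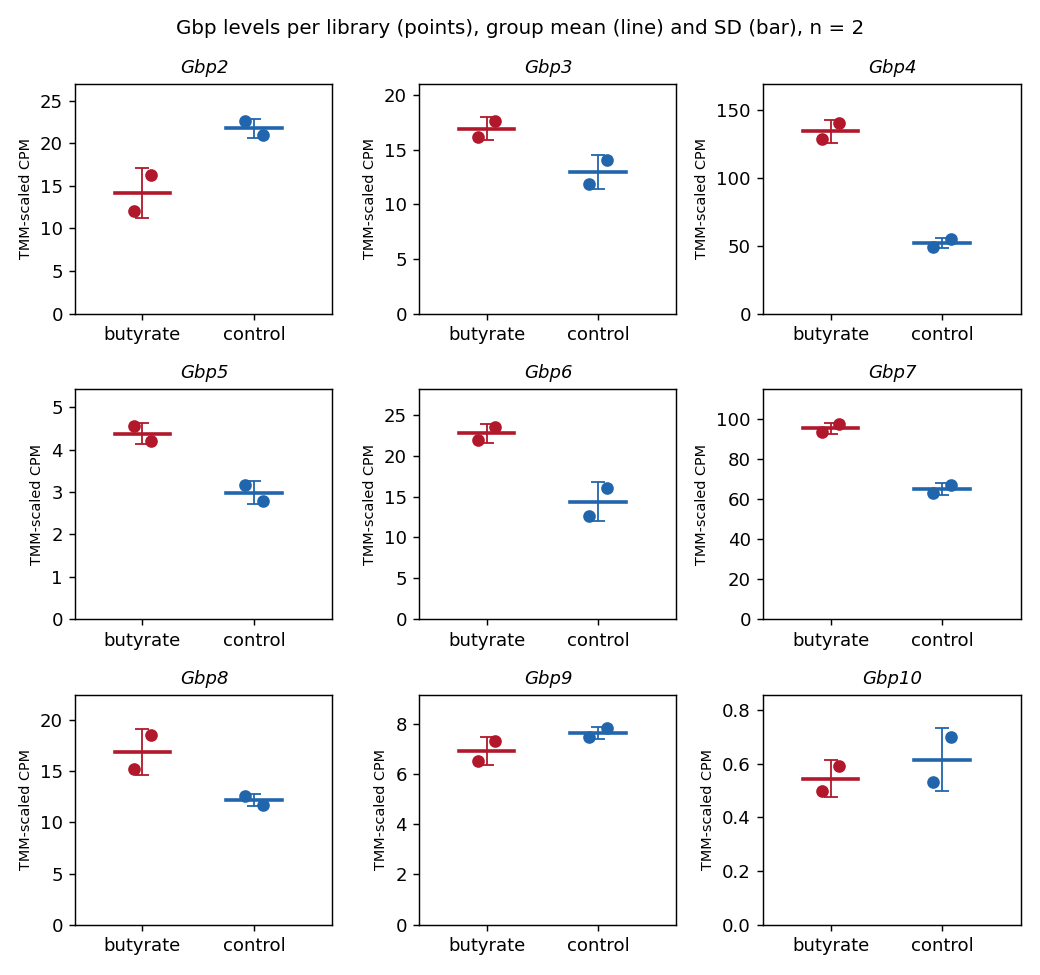
Level of each Gbp gene in TMM-scaled CPM (vertical axes from 0, a scale of its own for each gene) in the 2 butyrate and 2 control libraries, where points are libraries, lines are group means and bars are SD (n = 2). Gbp4 sits at 129 and 140 CPM in butyrate against 49.3 and 54.8 CPM in control, and Gbp2 sits lower in butyrate. The points of the groups overlap for Gbp10 alone, while over all genes tested the groups did not overlap for 85.9%.

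Gbp2 and Gbp5 carry a C-terminal lipid anchor that holds the protein on membranes. Gbp2, which mice need to resist Toxoplasma, had 12.1 and 16.2 TMM-scaled CPM in the butyrate libraries, against 22.5 and 20.9 CPM in the control libraries. Both butyrate libraries lay below both control libraries. The log2 fold change of Gbp2 was -0.62 (SE 0.16, edgeR quasi-likelihood adjusted p = 0.0299). The call was lost without control replicate 1 (-0.57, edgeR adjusted p = 0.191) and without control replicate 2 (-0.68, edgeR adjusted p = 0.211), where 32.8 and 33.2% of all genes passed as lower. It was also lost at a mitochondrial limit of 5% (-0.69, edgeR adjusted p = 0.0750), where 34.0% of all genes passed as lower. Gbp2 stayed past the threshold without butyrate replicate 1 (-0.42) and without butyrate replicate 2 (-0.84), as 31.4 and 31.6% of all genes did in that direction. With the mouse as a block, where 36.6% passed as lower, its edgeR adjusted p was 0.0455.

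Gbp5, which promotes assembly of the NLRP3 inflammasome in mouse macrophages, had 4.55 and 4.20 CPM in butyrate, against 3.18 and 2.80 CPM in control. The groups did not overlap. The log2 fold change was 0.56 (SE 0.11, edgeR adjusted p = 0.000423), from 293 and 269 UMIs in butyrate and 173 and 188 UMIs in control.

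Gbp3, Gbp6, Gbp7 and Gbp9 are among the mouse GBPs seen on Toxoplasma vacuoles, and Gbp7 was also tied to delivery of the NADPH oxidase to bacterial vacuoles. Gbp7 had 93.4 and 97.4 CPM in butyrate, against 63.0 and 67.3 CPM in control. The gap between the groups was wider than the gap within either, and the log2 fold change was 0.55 (SE 0.05, edgeR adjusted p = 5.2e-08). Gbp6 had 21.9 and 23.6 CPM in butyrate, against 12.7 and 16.1 CPM in control (log2 fold change 0.65, SE 0.11, edgeR adjusted p = 0.00158). Most of the end of its transcripts is shared with Gbp10, so this value is uncertain, and the direction of any error is not known.

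Gbp3 had 16.1 and 17.6 CPM in butyrate, against 11.9 and 14.1 CPM in control. The groups did not overlap, and the log2 fold change was 0.38 (SE 0.08, edgeR adjusted p = 0.00115). Scaled to library totals alone, Gbp3 stood at 0.18 and did not pass (edgeR adjusted p = 0.0714). Gbp9 had 6.53 and 7.32 CPM in butyrate, against 7.47 and 7.83 CPM in control. The groups were apart by a narrow margin, and the change, -0.15 on the log2 scale with SE 0.08, did not pass the test (edgeR adjusted p = 0.131). Scaled to library totals alone, Gbp9 stood at -0.35 and passed (edgeR adjusted p = 0.00134).

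Gbp4, reported in mouse cells to restrain the type I interferon regulator IRF7, had 129 and 140 CPM in butyrate, against 49.3 and 54.8 CPM in control. Both butyrate libraries stood far above both control libraries. The log2 fold change was 1.37 (SE 0.06, edgeR adjusted p = 1.14e-09), and it ranged from 1.29 to 1.44 as each library was left out. Gbp8, whose role is less well known, had 15.3 and 18.5 CPM in butyrate, against 12.6 and 11.8 CPM in control (log2 fold change 0.47, SE 0.09, edgeR adjusted p = 0.000791). Gbp10 had few UMIs, 32 and 38 UMIs in butyrate and 29 and 47 UMIs in control. Its groups overlapped, and the log2 fold change was -0.19 (SE 0.26, edgeR adjusted p = 0.520).

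**Figure D2:**
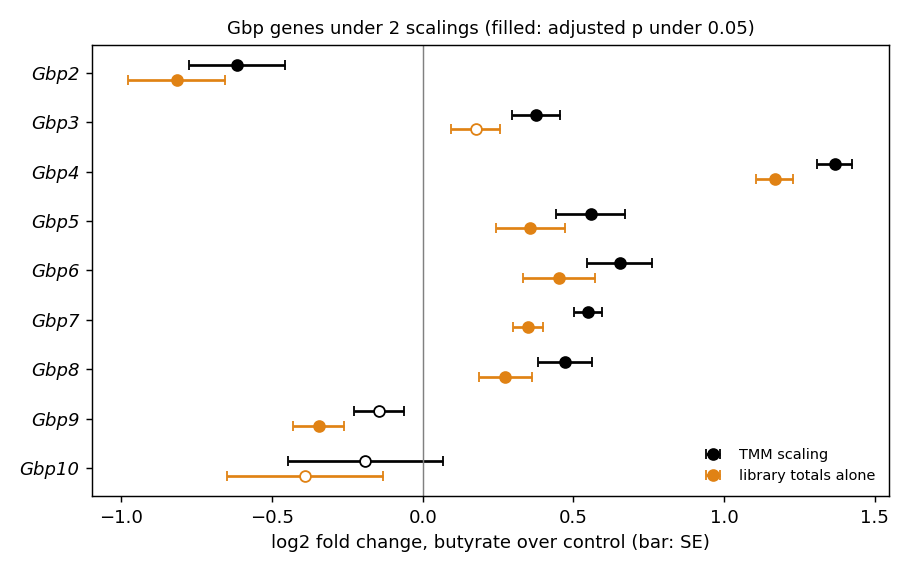
Log2 fold change of each Gbp gene (horizontal axis, butyrate over control, bars are SE) with TMM scaling and with library totals alone, filled where the adjusted p is under 0.05. Gbp4 lies farthest to the right at 1.37 and Gbp2 farthest to the left at -0.62 with TMM scaling, and every gene moves to the left by a like amount with library totals alone.

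Counted together, the 9 genes held 19241 and 20859 UMIs in the butyrate libraries and 9980 and 13188 UMIs in the control libraries. Their summed level was 312 ± 19.0 TMM-scaled CPM in butyrate and 190 ± 9.17 CPM in control (SD, n = 2 each, difference 123 CPM). An exact two-sided permutation test gave p = 0.333, the smallest value that 2 against 2 libraries can give.

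The makeup of the family does not depend on how libraries are scaled against each other. Gbp4 gave 43.0 and 43.1% of the members' UMIs in butyrate, against 26.9 and 27.9% in control. Gbp2 gave 4.04 and 4.98% in butyrate, against 12.3 and 10.7% in control. The share of Gbp7 was 31.2 and 29.9% in butyrate and 34.4 and 34.3% in control, so it was lower in butyrate although the level of Gbp7 was higher. There were 10.6 and 8.66 Gbp4 UMIs for each Gbp2 UMI in butyrate, against 2.19 and 2.62 in control. These shares count 3' UMIs per gene and are not divided by transcript length.

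To compare cells at 1 depth, each cell was thinned at random to 8000 UMIs, which left out 54 and 68 shallower cells in butyrate and 71 and 112 in control. After thinning, a UMI of at least 1 member was found in 81.4 and 84.2% of butyrate cells (exact 95% intervals 79.8 to 82.9% and 82.7 to 85.6%). In control cells the share was 71.3 and 73.9% (intervals 69.2 to 73.3% and 72.1 to 75.6%). The groups did not overlap, with a mean difference of 10.2 percentage points and the smallest possible exact permutation p of 0.333. Without thinning the shares were 97.8 ± 0.0204% in butyrate and 92.2 ± 0.626% in control (SD, n = 2 each). The intervals cover counting error only.

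By gene, Gbp4 was detected in 54.8 and 58.9% of thinned butyrate cells, against 33.2 and 34.6% of control cells. Gbp7 was detected in 48.6 and 48.5% in butyrate and in 39.9 and 41.5% in control. Gbp2 was detected in 8.18 and 10.7% in butyrate and in 16.9 and 15.6% in control. Gbp4 and Gbp7 were thus found in more butyrate cells and Gbp2 in fewer, with no overlap between the groups. The part of all genes without overlap in this measure was not computed. Gbp8 overlapped, with 11.1 and 13.8% in butyrate and 11.3 and 9.84% in control. UMIs of 2 different members were found in 27.8 and 29.2% of butyrate cells and in 23.0 and 23.9% of control cells, and UMIs of 3 in 14.2 and 14.5% of butyrate cells and in 10.3 and 9.76% of control cells.

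**Figure D3:**
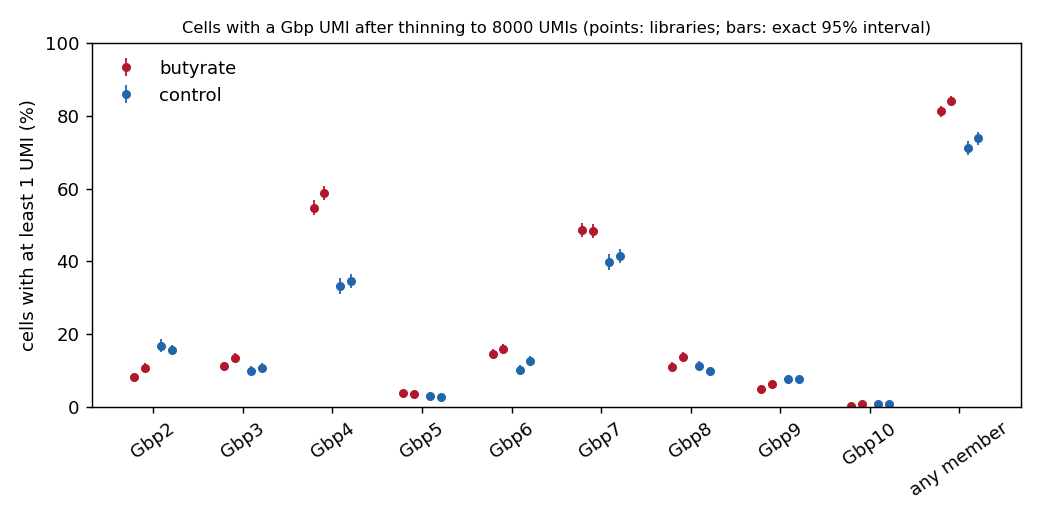
Share of cells with at least 1 UMI of each Gbp gene, and of any of them, after thinning to 8000 UMIs (vertical axis in percent), where points are libraries and bars are exact 95% binomial intervals. Gbp4 stands at 54.8 and 58.9% in butyrate against 33.2 and 34.6% in control, and Gbp2 runs the other way.

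The sorted libraries hold no cell type that should lack Gbp mRNA, so the share due to free RNA could not be read from one. Barcodes with at most 100 UMIs held the members at a summed 229.7 and 285 CPM in butyrate and 186 and 209 CPM in control, scaled to library totals. That was 0.824 and 0.937 times the level of the kept cells in butyrate and 0.954 and 0.988 times in control. By gene the order differed: Gbp2 stood higher in these barcodes than in the kept cells of every library, at 17.0 against 11.3 CPM and 21.9 against 15.1 CPM in butyrate and at 27.0 against 24.0 CPM and 37.1 against 22.5 CPM in control. Gbp4 stood lower, at 94.3 against 119.9 CPM and 111 against 131 CPM in butyrate and at 48.3 against 52.5 CPM and 50.5 against 59.0 CPM in control. The part of free RNA in the shares of cells with a UMI was not tested.

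Within a library the members were only loosely joined from cell to cell. Pearson correlations of log1p UMIs over 2506 and 2596 thinned butyrate cells and 1988 and 2520 control cells averaged from 0.0057 (Gbp5 with Gbp9) to 0.17 (Gbp2 with Gbp6) over the 4 libraries. The counts are sparse, and the cells of a library share its depth and free RNA. Among 7322 genes with a UMI in at least 5% of cells of every library, those most like the summed members over cells included Igtp (mean r = 0.24), Malat1 (0.21), mt-Co1 (0.20) and Gm42418 (0.19). Igtp encodes another interferon-inducible GTPase. Malat1 is a nuclear RNA, mt-Co1 is mitochondrial, and Gm42418 is a predicted gene.

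The effect was also read in cells with and without a UMI of Mki67 or Top2a, genes of cycling cells. Thinned cells with neither UMI numbered 348 and 411 in butyrate and 280 and 371 in control, between 13.9 and 15.8% of each library. In these cells Gbp3, Gbp4, Gbp6 and Gbp7 passed as higher, where 23.5% of 9294 genes did, and Gbp2 and Gbp9 passed as lower, where 23.1% did. Gbp5 and Gbp8 did not pass, and Gbp10 was not tested. The call of Gbp3 (log2 fold change 0.60) was lost without either butyrate library (0.63 without replicate 1 and 0.58 without replicate 2) and without control replicate 2 (0.48). That of Gbp6 (0.47) was lost without butyrate replicate 2 (0.45) and without either control library (0.44 without replicate 1 and 0.49 without replicate 2). Gbp4 had a log2 fold change of 1.41 there (SE 0.11) and 1.38 in cells with a Mki67 or Top2a UMI (SE 0.06).

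In cells with a Mki67 or Top2a UMI, 6 members passed as higher, where 31.1% of 11835 genes did, and Gbp2 passed as lower, where 30.2% did. Gbp3 had a log2 fold change of 0.43 there, and its call was lost without butyrate replicate 2 (0.27, edgeR adjusted p = 0.0844) and with library totals alone (0.23, edgeR adjusted p = 0.0753). In either direction 61.2% of these genes passed, and 46.6% did in the cells with neither UMI. The difference between the classes was tested as an interaction, with the library as a block. It passed for 20.3% of 11390 genes and for 3 of the 9 members, Gbp2, Gbp8 and Gbp9. In each of the 3 the change in cells with a Mki67 or Top2a UMI was the more positive, as in 11.6% of all genes, against 8.75% where it was the more negative.

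Gbp9 had 5.39 and 12.8 CPM in butyrate cells without Mki67 and Top2a UMIs, against 19.6 and 18.5 CPM in control cells of that class. In cells with such a UMI it had 7.07 and 7.72 CPM in butyrate, against 8.78 and 8.84 CPM in control. Within the first class the fall was 0.92 on the log2 scale (log2 fold change -0.92, edgeR adjusted p = 0.00272), and in the second the log2 fold change was -0.052 (edgeR adjusted p = 0.741). The first rests on 15 and 42 UMIs in butyrate and 44 and 55 UMIs in control, and it did not pass without butyrate replicate 1 (-0.46, edgeR adjusted p = 0.196). Gbp2 had 16.2 and 31.0 CPM in butyrate cells without Mki67 and Top2a UMIs, against 62.5 and 47.8 CPM in control cells of that class (log2 fold change -1.07, edgeR adjusted p = 0.00173). Leaving out butyrate replicate 1 gave -0.69 and leaving out butyrate replicate 2 gave -1.65, both past the threshold. Gbp8 had 20.1 and 19.5 CPM there in butyrate, against 24.6 and 19.5 CPM in control, a difference that did not pass (log2 fold change -0.037, edgeR adjusted p = 0.897). The class levels are scaled to the thinned totals.

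**Figure D4:**
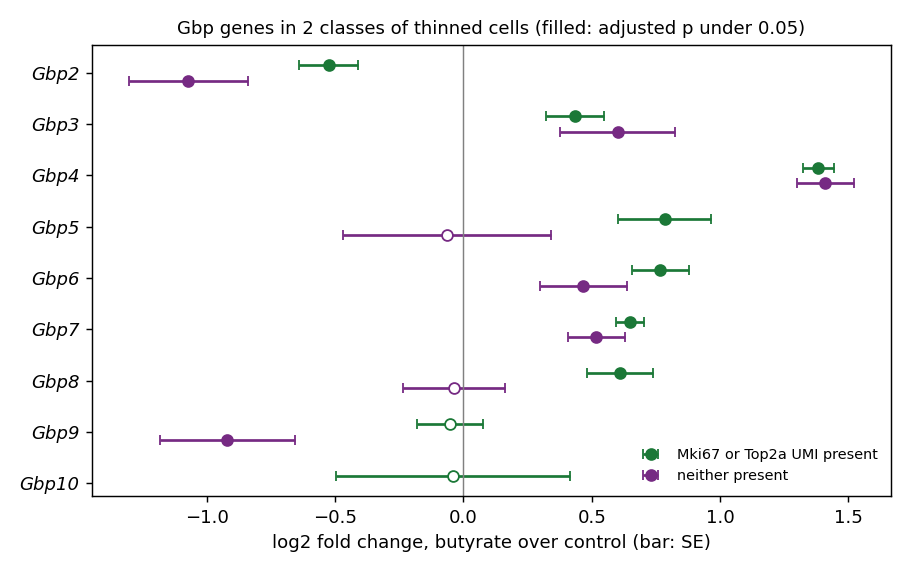
Log2 fold change of each Gbp gene (horizontal axis, butyrate over control, bars are SE) in thinned cells with a Mki67 or Top2a UMI and in cells with neither, filled where the adjusted p is under 0.05. The values of Gbp4 lie together at 1.38 and 1.41, while those of Gbp9 lie apart at -0.052 and -0.92, and Gbp10 was not tested in cells with neither UMI.

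Interferon gamma itself, encoded by Ifng, had 1512 and 990 UMIs in butyrate and 21 and 55 UMIs in control. It was found in 6.86 and 7.55% of thinned butyrate cells and in 0.201 and 0.913% of control cells. The log2 fold change was 4.96 (SE 0.54, edgeR adjusted p = 0.0113), which did not pass without control replicate 1 (edgeR adjusted p = 0.120) or without control replicate 2 (edgeR adjusted p = 0.123).

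Cells with an Ifng UMI, 172 and 196 in butyrate and 4 and 23 in control, were compared with the other cells of their library. By edgeR, 0 of the 8 members tested passed, where 0.845% of 11355 genes did, 0.678% as higher and 0.167% as lower, and 1 had an unadjusted p under 0.05. That was Gbp2, with a log2 difference of -0.68 (SE 0.27, edgeR adjusted p = 0.385). Gbp4 differed by -0.14 (SE 0.11, edgeR adjusted p = 0.823). The control libraries hold few of the cells with an Ifng UMI, so that side of the comparison is mostly butyrate cells.

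**Figure D5:**
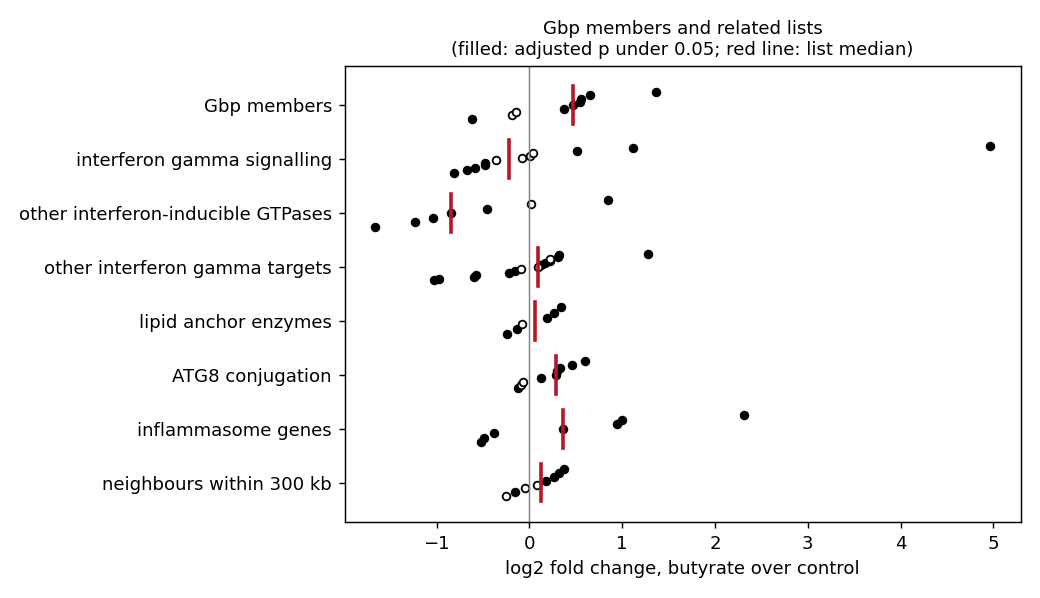
Log2 fold change (horizontal axis, butyrate over control) of the genes of each list that were tested, 1 point per gene, filled where the adjusted p is under 0.05, with the median of the list as a red line. The Gbp members have a median of 0.47, the other interferon-inducible GTPases of -0.85, and the point at 4.96 is Ifng.

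The genes of interferon gamma signalling did not move together. Of 12 tested, 3 rose and 5 fell, with a median log2 fold change of -0.22. In either direction 66.7% of this list passed, near the 71.8% of all genes, of which 36.0% rose and 35.7% fell. Besides Ifng, Irf8, a transcription factor induced by interferon gamma, rose (log2 fold change 1.12, SE 0.04, edgeR adjusted p = 9.31e-12), as did Socs1, the feedback inhibitor of Janus kinases (0.51, edgeR adjusted p = 1.00e-07). Ifngr1, the ligand-binding receptor chain, fell (log2 fold change -0.58, SE 0.05), as did Jak2, a kinase of the receptor (-0.67), and Irf1, a transcription factor that drives Gbp genes (-0.47).

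Most of the other interferon-inducible GTPases, some of which act beside GBPs on vacuoles, fell when counted by gene. Of 7 tested, 1 rose and 5 fell, with a median of -0.85. Of all genes tested, 36.0% rose and 35.7% fell. The summed level of the 7 was higher in butyrate, at 193 and 195 TMM-scaled CPM, against 171 and 178 CPM in control. Igtp was the most abundant of them in every library. Igtp rose (log2 fold change 0.85, SE 0.04), with 123 and 123 CPM in butyrate, against 66.6 and 70.0 CPM in control. Irgm1, which regulates the other members of its family, fell (-0.85), as did Ifi47 (-0.46) and Gvin1, a very large GTPase (-1.66). Gvin1 was low, at 1.86 and 1.98 CPM in butyrate and 5.88 and 6.28 CPM in control. Tgtp1 (-1.03) and Tgtp2 (-1.23) also fell, at still lower levels. Mx1 and Mx2 were not analysed here.

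Of 15 other interferon gamma targets tested among 18 listed, 6 rose and 6 fell, with a median of 0.096. In either direction 80% of those tested passed, against 71.8% of all genes. The immunoproteasome subunit Psmb10 fell (log2 fold change -1.02), as did the ADP-ribosyltransferase Parp14 (-0.98), the peptide transporter Tap1 (-0.59) and its partner Tapbp (-0.58). With library totals alone, 2 of these genes rose, where 25.2% of all genes did.

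The machinery around GBPs was read in 2 further lists. In the conjugation system that attaches ATG8 proteins to membranes, which GBPs need to reach vacuoles, 6 of 9 genes rose and 1 fell. The median was 0.29. In either direction 77.8% of this list passed, near the 71.8% of all genes. The 1 that fell, Atg12, passed narrowly (edgeR adjusted p = 0.0496) and did not pass with any single library left out. Atg3 (log2 fold change 0.60), Atg5 (0.46), Gabarap (0.30) and Gabarapl2 (0.29) were among those that rose. With library totals alone, 2 of the 9 passed as higher and 3 as lower, as 25.2 and 49.8% of all genes did. Of 7 inflammasome genes tested among 8 listed, 4 rose and 3 fell, as 36.0 and 35.7% of all genes did. The adaptor Pycard (0.94), the cytokine Il18 (2.31) and the DNA sensor Aim2 (0.37) rose, and the pore-forming Gsdmd fell (-0.52). With any single library left out 3 genes passed as higher, and 2 or 3 as lower.

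Markers of other cells moved with the treatment. The 8 myeloid markers summed to 12.9 and 14.4 CPM in butyrate and 2.17 and 2.63 CPM in control. The 3 that were tested, Cd68, Itgam and Cd14, rose, where 36.0% of all genes did, while C1qa, C1qb and Adgre1 were at 0 in every library. Lyz2 had 1 and 1 UMIs in butyrate and 0 and 0 UMIs in control. Csf1r had 0 and 2 UMIs in butyrate and 1 and 0 UMIs in control. The 8 dendritic cell markers summed to 37.8 and 43.8 CPM in butyrate and 35.2 and 30.0 CPM in control, with 5 of 6 tested higher and Siglech at 0. The 4 NK cell markers summed to 44.7 and 53.7 CPM in butyrate and 8.94 and 10.7 CPM in control. Both tested genes were higher, where 36.0% of all genes were. The 5 B cell markers summed to 7.47 and 8.36 CPM in butyrate and 6.73 and 6.22 CPM in control, with Pax5 at 0. The 3 markers of CD4 or regulatory T cells summed to 9.85 and 8.90 CPM in butyrate and 7.10 and 7.05 CPM in control. Most of this sum was Zbtb7b (log2 fold change 0.52). Cd4 itself had 33 and 40 UMIs in butyrate and 3 and 1 UMIs in control (log2 fold change 4.03). Both passed as higher, where 36.0% of all genes did. Median mitochondrial shares were 3.93 and 4.13% in butyrate and 4.89 and 4.91% in control. The part of these differences in the Gbp values was not tested.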

How the data were processed

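UMI counts were deposited by the authors as raw matrices of gene by droplet barcode for 4 libraries, with no cell filter applied. Cell Ranger 4, Seurat 4.3 and mm10 are named per the submitters' processing notes. The sources used here do not give the annotation release, nor whether intronic reads were counted. Of 32285 gene IDs, 32158 were found in GENCODE M21.

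Cells were barcodes with at least 10% of the UMIs at the 99th percentile of the top 3000 barcodes, at least 500 genes and under 10% mitochondrial UMIs. The last filter removed 63 and 92 butyrate and 217 and 295 control barcodes. No doublet caller was run; an alternative left out the 2% of cells with the most UMIs. Sums of counts over the kept cells of a library entered edgeR 4.0.16 (R 4.3.3, filterByExpr, TMM, robust quasi-likelihood fit, group as the only term), adjusted over all genes tested. TMM factors were 0.932 and 0.934 in butyrate and 1.07 and 1.08 in control. Standard errors come from the fold change and the F statistic (log2 fold change over the root of F). The fit was tested on simulated data. DESeq2 1.42.0 was an alternative.

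Labels tie replicate numbers to mice. Deviations of cultures of the same mouse correlated weakly over genes (Pearson 0.059, Spearman 0.053), and the mouse as a block was an alternative. With 2 libraries per group, p-values draw on spread pooled over genes and do not carry over to other mice. Correlations between cells used log1p of thinned UMIs.

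Named were all 9 members, up to 4 genes of each list with the smallest p, with Ifng, Irf1, Gbp2b and Gbp11, the protein-coding genes within 300 kb and the 5 most alike genes. The members and lists were chosen with earlier results of these data known. Some genes that this rule names are not reported here.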

Additional observations from a re-analysis of the deposited data

Results flagged for a closer look

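The butyrate effect differed between cells with and cells without a Mki67 or Top2a UMI, by the edgeR interaction test, for 3 members. The difference was 0.61 on the log2 scale for Gbp2 (SE 0.18, edgeR adjusted p = 0.00900). It did not pass without butyrate replicate 1 (0.41, edgeR adjusted p = 0.215) or without control replicate 1 (0.49, edgeR adjusted p = 0.121). It was 0.70 for Gbp8 (SE 0.23, edgeR adjusted p = 0.0171), which did not pass without butyrate replicate 2 (0.45, edgeR adjusted p = 0.331), without control replicate 1 (0.62, edgeR adjusted p = 0.130) or without control replicate 2 (0.75, edgeR adjusted p = 0.0622). It was 0.92 for Gbp9 (SE 0.29, edgeR adjusted p = 0.0112), which did not pass without butyrate replicate 1 (0.51, edgeR adjusted p = 0.324). The direction held with each library left out.

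Barcodes with at most 100 UMIs are not cells and enter none of the edgeR tests. The Gbp members made up a larger share of their UMIs in the butyrate libraries than in the control libraries. Counted as UMIs the groups overlapped, with 1162 and 1131 in butyrate and 868 and 1155 in control. In these barcodes the summed members were at 229.7 CPM in butyrate replicate 1 and 285 CPM in butyrate replicate 2, against 186 and 209 CPM in the control libraries.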

How the results depend on the processing

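The count of 6 members higher in butyrate stayed within 1.5 times under every alternative run, and Gbp4, Gbp5, Gbp6, Gbp7 and Gbp8 kept direction and call in all 12. Scaling moved the most: with library totals alone 3395 genes were higher and 6710 lower, against 4861 and 4818 with TMM. The members lower then numbered 2, while a mitochondrial limit of 5% gave 0 and leaving out single libraries gave 0 to 1. In cells without Mki67 and Top2a UMIs, 2 members were higher with library totals alone, and with single libraries left out 2 to 3 were higher and 1 to 2 lower, against 4 and 2. Interactions that passed numbered 1 to 2 with single libraries left out, against 3; these fits, and those of the summed level (difference 109 to 136 CPM) and the share of cells (8.78 to 11.6 points), were chosen after seeing the data. Library totals alone reversed Icmt (-0.011), Lrrc8c (-0.023) and mt-Co1 (-0.082). It also gave 9 interferon gamma signalling genes lower against 5, and 1 lipid anchor enzyme higher against 3. The mouse as a block left the counts of members called at 6 and 1, with Gbp2 at an edgeR adjusted p of 0.0455. It gave 0 ATG8 conjugation genes lower against 1 and made Gm42418 pass (-0.93, edgeR adjusted p = 0.0167), and it gave 4958 genes higher and 4931 lower. The cause of these shifts was not tested. With 2 libraries per group, a lone library in such a fit is assumed to vary like the others, and the exact test cannot go below 0.333.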

Other observations

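A few cells held many Gbp2 UMIs each, while most Gbp2 UMIs lay in the other cells. Thinned cells with at least 5 Gbp2 UMIs numbered 1 and 2 in butyrate and 7 and 5 in control, and they held 1.91 and 11.1% of the Gbp2 UMIs in butyrate and 10.5 and 5.41% in control. The cell with the most, in butyrate replicate 2, had 28. In every library all of these cells had a UMI of the T cell gene Cd3e. So did 84.9 and 89.2% of the other butyrate cells and 91.8 and 92.0% of the other control cells. None of them had a UMI of Lyz2 or Cd74, but 0 thinned cells of any library had a Lyz2 UMI. Cd74 was rare, with 101 and 134 UMIs in all kept butyrate cells and 18 and 50 UMIs in control. These few cells can therefore not be typed by these genes. They held more UMIs of the other 8 members than the other cells, with means of 6 and 19 in butyrate and 7.71 and 5.2 in control, against 2.36 and 2.60 in the other butyrate cells and 1.48 and 1.60 in the other control cells. Without them Gbp2 stood at 12.8 and 16.9 CPM in butyrate and 27.8 and 25.2 CPM in control, so the groups were still apart. This cell class was chosen after the values were seen.

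Of 8 protein-coding neighbours tested within 300 kb of the clusters, 4 rose and 1 fell, with a median log2 fold change of 0.13. In either direction 62.5% of them passed, against 71.8% of all genes. Beside the chromosome 3 cluster, Gtf2b, a general transcription factor, rose (0.32, edgeR adjusted p = 1.93e-05), Pkn2, a kinase, fell (-0.15, edgeR adjusted p = 0.00844), and Kyat3 (0.077) and Pdlim5 (-0.044) did not pass. Beside the chromosome 5 cluster, Abcg3 (0.37), Lrrc8b (0.27) and Lrrc8c (0.18) rose and Zfp951 (-0.25) did not pass. With library totals alone only Gtf2b of the 4 passed as higher (0.12), while Abcg3 (0.18), Lrrc8b (0.065) and Lrrc8c (-0.023) did not pass. Abcg3 did not pass without control replicate 2 (0.22) or butyrate replicate 2 (0.28), nor Pkn2 without butyrate replicate 1 (-0.14).

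Of the 6 enzymes that add or finish the lipid anchor of GBPs and other proteins, 3 rose and 2 fell, with a median of 0.057. In either direction 83.3% of these enzymes passed, against 71.8% of all genes. Rce1 (0.34), Zmpste24 (0.26) and Icmt (0.19), which trim and methylate the C-terminus, rose, and Fnta, the shared subunit of the transferases, fell (-0.24). Icmt did not pass without control replicate 2 (0.18) or butyrate replicate 1 (0.16). Of the genes alike to the members over cells, Malat1 rose (0.66), mt-Co1 passed narrowly (0.12, edgeR adjusted p = 0.0451) and Gm42418 did not pass (-0.95, edgeR adjusted p = 0.107). Without control replicate 1, control replicate 2 or butyrate replicate 2 mt-Co1 did not pass, and without either control replicate Gm42418 did (-0.64 and -1.22).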
